A study of Homo sapiens with 6 samples.

Results

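Complex I subunits are described here across 3 treatments of Huh7, an established line of human hepatic tumour cells. The members were chosen by name alone: a probe set belonged when the annotation gave it a single gene symbol made of NDUF, a subunit letter (A, AB, B, C, S or V) and a number. This rule took 38 genes, measured by 70 probe sets, of 21298 genes with a single symbol and 54613 probe sets. Each gene was represented by its brightest probe set, the probe set with the highest mean over all arrays. RNA was hybridised to Affymetrix U133 Plus 2.0 arrays, and 2 arrays were available for each of 3 groups. All cultures were kept in DMEM with 10% FBS, and the groups received vehicle (control), native LDL at 120 µg/ml (nLDL, which enriches cells in cholesterol) or a statin at 5 µM (which depletes them of it), in each case for 24 h. The labels do not name the statin. FBS itself carries lipoproteins, so the control and statin cultures were not free of them. A single tumour-derived line, 1 dose and 1 time limit what the groups represent, and the arrays measured RNA, not protein or respiration.

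Complex I is the entry point of the mitochondrial respiratory chain. It takes electrons from NADH, passes them through flavin and a row of iron-sulfur clusters to ubiquinone, and pumps protons across the inner membrane. Its matrix arm holds the N module, which oxidises NADH, and the Q module, which reduces ubiquinone, while its membrane arm holds the proton pumps, whose central subunits are encoded in mitochondrial DNA. The isoprenoid tail of ubiquinone is made from mevalonate, the product of the enzyme that statins inhibit, and hepatocytes depend strongly on respiration. The question addressed was whether the nuclear genes of this complex moved together when cholesterol synthesis was inhibited.

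By the annotation, the 38 genes lay on 18 chromosomes, with 6 on chromosome 19, 4 on chromosome 11 and 2 on the X chromosome. By module, 10 belonged to the N module, 5 to the Q module, 10 to the proximal and 11 to the distal membrane arm. The remaining genes were NDUFAB1, the mitochondrial acyl carrier protein, and NDUFA4, which the current RefSeq annotation calls COXFA4 and which is now placed in complex IV. The other 37 symbols are current. The 38 brightest probe sets had mean levels of 9.88 to 13.35 on the log2 scale, and all lay above 4.23, the level under which the dimmest 40% of probe sets fell.

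Promoter windows from RefSeq (GRCh38.p14, 250 bases before to 50 after a transcription start) were found for 33 of the 38 genes, in 40 windows, because some genes have several starts. The remaining 5 had none. The windows were searched on both strands for motifs of factors known to act at nuclear genes of respiration, and matches to different motifs did not overlap. The motif GCGCANGCG of NRF1, a factor that binds many such promoters, was present in 10 windows (25%), those of NDUFA11, NDUFA12, NDUFA3, NDUFA5, NDUFA8, NDUFA9, NDUFAB1, NDUFB4, NDUFS6 and NDUFS7, beside 7.52% of all 35116 windows. With a further C at its end it was present in 6 (15%), beside 5.78%. The sites of NDUFAB1 and NDUFS6 are shown because these genes stand among the highest and the lowest with statin, and those of NDUFA3 and NDUFB4 as examples of the longer form, with the motif in capitals. The sequences are printed on the strand of the gene, so the match of NDUFAB1, which lies on the opposite strand, reads as the reverse complement CGCNTGCGC. They lie at chr16:23596343-23596371 (minus strand), chr5:1801351-1801379 (plus strand), chr19:54102772-54102800 (plus strand) and chr3:120596167-120596195 (plus strand), all before the start.
NDUFAB1: ccgtgtgcgtCGCCTGCGCgccgccggaa
NDUFS6: cagaagccgtGCGCATGCGttagcgctaa
NDUFA3: gtgctccaggGCGCACGCGcagccctggg
NDUFB4: agagcacttcGCGCATGCGcatatcaccg

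The motif AAGATGGC of YY1 was present in 7 windows (17.5%), those of NDUFA3, NDUFA6, NDUFA7, NDUFA9, NDUFB8, NDUFS4 and NDUFS7, beside 2.89% of all windows. It contains the letters ATG of a start codon. The sites of NDUFA7, the gene with the highest difference below, and NDUFS4 are shown with the motif in capitals. They lie at chr19:8321343-8321372 (minus strand) and chr5:53560649-53560678 (plus strand), after the transcription start.
NDUFA7: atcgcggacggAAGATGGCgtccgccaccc
NDUFS4: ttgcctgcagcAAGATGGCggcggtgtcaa

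The ETS motif CCGGAAG, bound by factors that include GABPA, was present in 5 windows (12.5%), beside 10.3% of all windows. Its members were NDUFA1, NDUFA13, NDUFB7, NDUFS1 and NDUFS3. A sterol regulatory element of the form TCACNCCAC, the letters bound by the SREBP factors, was present in 1 window (2.5%), that of NDUFA1, beside 1.13% of all windows. It lies at chrX:119871664-119871692 (plus strand) and is printed with the motif in capitals because SREBP2 is the factor that statins activate.
NDUFA1: cccctgcacgTCACTCCACgttgcgcgct

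A match is a description of the letters and was not tested as a binding site.

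Statin left the subunit genes within a narrow band around their control levels. None of the 38 passed the test across all probe sets (limma with Benjamini-Hochberg adjustment, threshold 0.05), beside 3.75% of all genes that did, of which 1.49% were higher and 2.26% lower with statin, and beside 4.5% of the 2690 genes whose brightest probe sets lay in the same range of levels (9.88 to 13.35). The log2 differences ran from -0.11 (NDUFV3) to 0.18 (NDUFA7), which is 0.924 to 1.14 times control. At an unadjusted p under 0.05 there was 1 gene, NDUFA7, beside 21.9% of all genes and 24.5% of those in the level range. All 38 intervals (95%) lay within a 1.5-fold change in either direction, the widest bounds being 0.806 and 1.29 times control. In bulk RNA a change in RNA per cell and a change in the make-up of the cells cannot be told apart.

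NDUFA7, an accessory subunit of the N module, had the highest difference. Its log2 values were 10.65 and 10.70 in control, 10.66 and 10.65 with nLDL, and 10.90 and 10.82 with statin. Both statin arrays lay above all 4 other arrays. The difference from control was 0.18 (SE 0.08, 95% interval 0.000585 to 0.37), with an adjusted p = 0.264 in limma. When the prior variance was allowed to follow the level of the probe set, the adjusted p was 0.0245, as described below.

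NDUFAB1 carries growing acyl chains in mitochondrial fatty acid synthesis and sits in complex I as a subunit. Its values were 12.72 and 12.69 in control, 12.75 and 12.71 with nLDL, and 12.86 and 12.83 with statin. The statin arrays again lay above the other 4, by a difference from control of 0.14 (SE 0.07, adjusted p = 0.377). With the prior that follows the level its adjusted p was 0.0135 in limma.

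NDUFB10 and NDUFB5, accessory subunits of the distal membrane arm, followed. NDUFB10 measured 11.34 and 11.30 in control, 11.33 and 11.28 with nLDL, and 11.44 and 11.45 with statin, a difference of 0.13 (SE 0.08, adjusted p = 0.414). NDUFB5 measured 11.44 and 11.40 in control, 11.45 and 11.47 with nLDL, and 11.52 and 11.53 with statin, a difference of 0.11 (SE 0.07, adjusted p = 0.491). In both genes the statin arrays did not overlap with the other groups.

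At the other end stood NDUFV3, an accessory subunit of the N module. It measured 10.83 and 10.80 in control, 10.73 and 10.72 with nLDL, and 10.67 and 10.73 with statin. Both treatments lay below both control arrays and overlapped with each other, and the statin difference was -0.11 (SE 0.07, 95% interval -0.29 to 0.06, adjusted p = 0.463).

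NDUFV2, NDUFB8 and NDUFS6 had the next lowest differences. NDUFB8, a distal subunit often probed to detect assembled complex I, measured 11.85 and 11.84 in control and 11.75 and 11.79 with statin, a difference of -0.08 (SE 0.07, adjusted p = 0.637). NDUFS6, a zinc-binding subunit of the N module, measured 11.60 and 11.58 in control and 11.54 and 11.49 with statin, a difference of -0.07 (SE 0.09, adjusted p = 0.703). In both, the statin arrays lay below both control arrays, and NDUFV2 is given with the core subunits below.

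**Figure D1:**
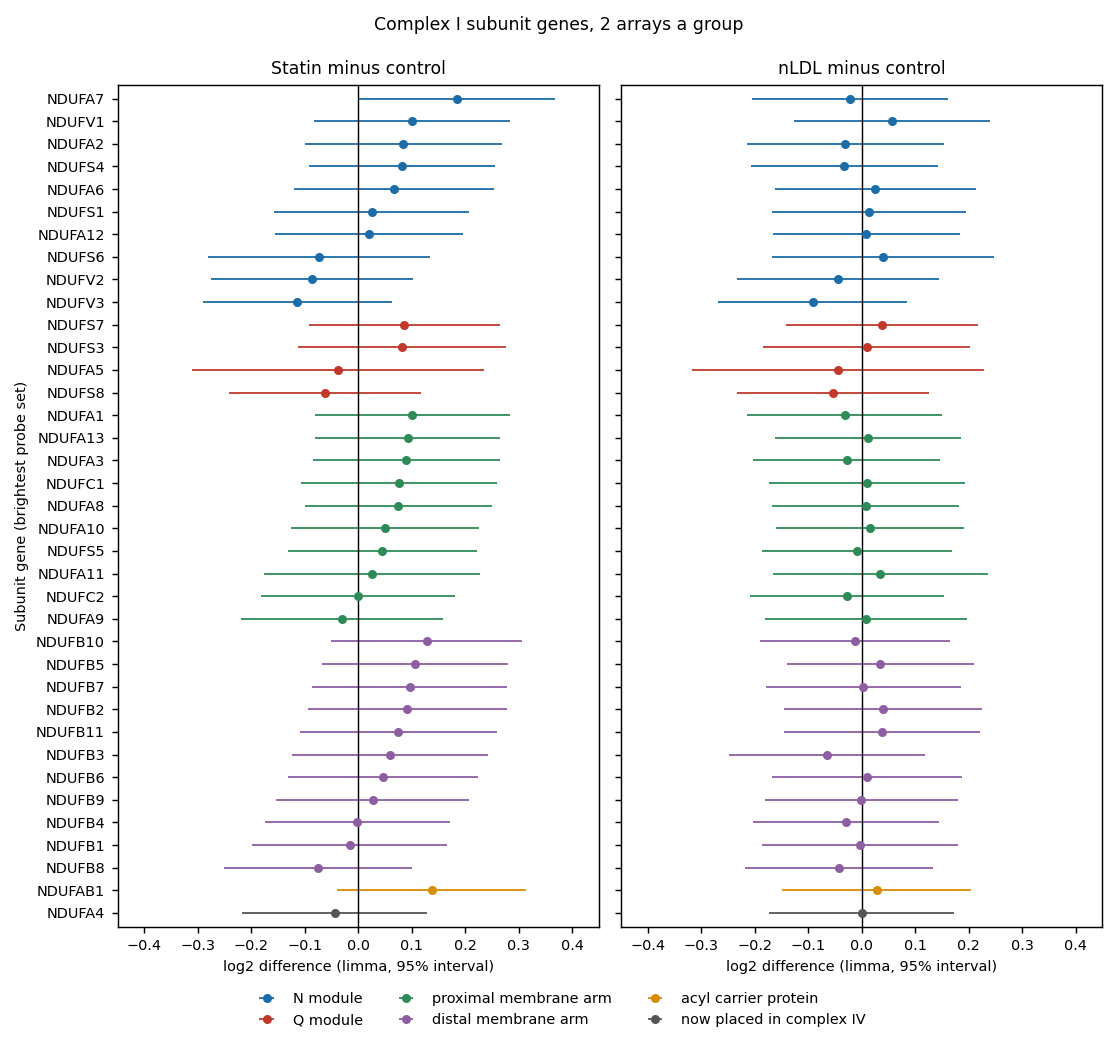
Log2 differences of 37 subunit genes with their 95% limma intervals (horizontal axes), for statin against control and nLDL against control in separate panels, with genes in rows and coloured by module. Statin differences ran from -0.11 to 0.18 and nLDL differences from -0.09 to 0.06, and NDUFA7 with statin has the sole interval that leaves out 0 in these panels.

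The 7 conserved core subunits, which carry the flavin and the iron-sulfur clusters and have counterparts in bacteria, did not pass the test singly. Their smallest adjusted p with statin was 0.538 in limma. Of their statin differences 5 were above 0, beside 55.4% of all genes, and a shared direction was not tested. NDUFV1, which binds NADH and the flavin, measured 12.74 and 12.66 in control, 12.77 and 12.74 with nLDL, and 12.82 and 12.78 with statin. Its statin difference was 0.10 (SE 0.08), and the statin arrays lay above both controls.

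NDUFV2, the iron-sulfur partner of NDUFV1, went the other way. It measured 12.31 and 12.39 in control, 12.35 and 12.26 with nLDL, and 12.25 and 12.28 with statin, a difference of -0.09 (SE 0.08, adjusted p = 0.610). The statin arrays lay below both controls and overlapped with nLDL.

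NDUFS1, the largest subunit, which carries several of the clusters, measured 9.83 and 9.91 in control, 9.89 and 9.87 with nLDL, and 9.91 and 9.87 with statin. All 3 groups overlapped, with a statin difference of 0.02 (SE 0.08).

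In the Q module, NDUFS7 lines the pocket in which ubiquinone is reduced and carries the last cluster of the chain. It measured 10.48 and 10.41 in control, 10.48 and 10.49 with nLDL, and 10.52 and 10.54 with statin, a statin difference of 0.09 (SE 0.08). The statin arrays lay above both controls.

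NDUFS3, a structural subunit of the Q module, measured 10.58 and 10.58 in control, 10.66 and 10.52 with nLDL, and 10.68 and 10.64 with statin, a difference of 0.08 (SE 0.08). NDUFS8, which carries a pair of clusters, measured 12.55 and 12.48 in control, 12.49 and 12.44 with nLDL, and 12.45 and 12.46 with statin, a difference of -0.06 (SE 0.08). The statin arrays of NDUFS3 lay above the controls and those of NDUFS8 below them, and neither difference passed the test.

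Over all 38 genes, 27 statin differences were above 0, beside 55.4% of all genes, and their median was 0.06, beside 0.02 over all genes and 0.02 over all probe sets. Other scalings moved the median of the 38 to between 0.021 and 0.098, and that over all genes to between -0.012 and 0.023. Averaging all probe sets per gene gave 0.030 for the 38. Among the genes of the same level range, 40% of the differences were above 0 and the median was -0.04. For 21 genes both statin arrays exceeded both control arrays, beside 30.3% of all genes and 28.4% of those in the level range. For 6 genes (NDUFA4, NDUFB8, NDUFS6, NDUFS8, NDUFV2 and NDUFV3) both statin arrays lay below both controls, beside 25.1% of all genes. The groups overlapped for the remaining 11. The SEs of single members ran from 0.0734 to 0.116.

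The medians of the modules were close to each other. They were 0.05 for the N module, 0.05 for the Q module, 0.06 for the proximal arm and 0.06 for the distal arm. The membrane arms held 14 of the 21 genes whose statin arrays both lay above the controls. These were 7 of 10 genes in the proximal and 7 of 11 in the distal arm, beside 30.3% of all genes. In the N module 4 of 10 genes were both higher, 3 both lower and 3 overlapping. These counts were near the shares of all genes, 30.3% both higher and 25.1% both lower. The N module held both the highest and the lowest difference of the family.

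In the proximal arm, NDUFA1, a small membrane subunit needed for assembly, measured 12.09 and 12.11 in control, 12.04 and 12.10 with nLDL, and 12.16 and 12.24 with statin, a statin difference of 0.10 (SE 0.08). NDUFA13, also known as GRIM-19, measured 12.78 and 12.78 in control, 12.78 and 12.80 with nLDL, and 12.88 and 12.86 with statin, a difference of 0.09 (SE 0.07). For both genes the statin arrays lay above the other 4.

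NDUFA4, the complex IV subunit that the naming rule includes, measured 13.37 and 13.36 in control, 13.36 and 13.37 with nLDL, and 13.31 and 13.33 with statin. Its statin arrays lay below the other 4, by a difference from control of -0.04 (SE 0.07).

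**Figure D2:**
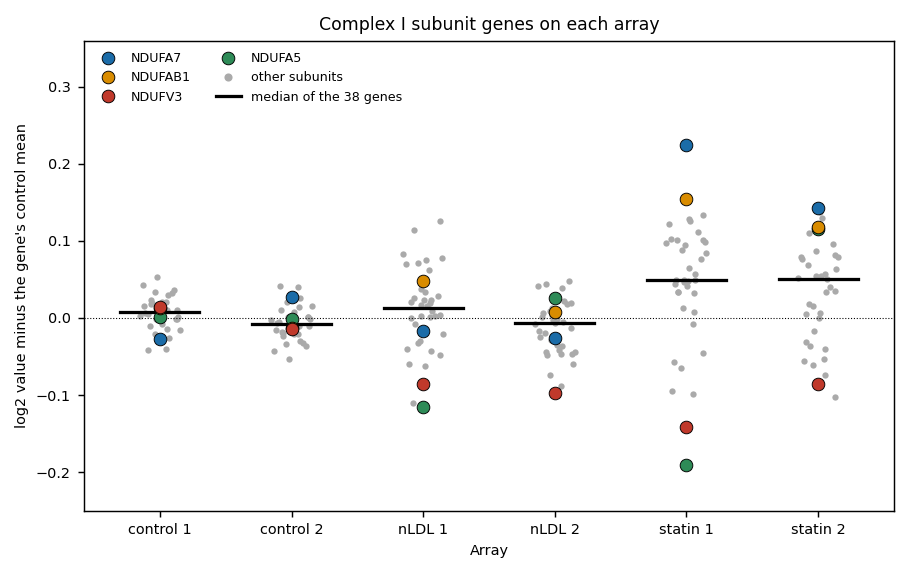
Log2 value minus the mean of the control arrays (vertical axis) for each of the 38 genes on each array (horizontal axis), with the median drawn as a line and named genes in colour. The median deviation was 0.01 and -0.01 on the control arrays, 0.01 and -0.01 on the nLDL arrays, and 0.05 and 0.05 on the statin arrays. The control values mirror each other because those arrays define the mean.

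Array by array, the family deviated by hundredths of a log2 unit. The median deviation from the control mean was 0.05 on both statin arrays, where 30 and 27 of the 38 genes lay above their control mean. On the nLDL arrays 24 and 15 genes did, and on the control arrays 25 and 13.

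The subunits were measured with little spread. The pooled replicate SD had a median of 0.0373 over the 38 genes, beside 0.0432 over genes in the same level range and 0.0855 over all genes. It was lowest for NDUFA13, at 0.0103, and highest for NDUFA5, a subunit of the Q module, at 0.138. NDUFA5 measured 11.28 and 11.27 in control, 11.16 and 11.30 with nLDL, and 11.08 and 11.39 with statin, so its statin arrays stood on either side of all the others.

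The differences themselves were also packed closer than those of other genes. With statin, 31 of 38 (81.6%) lay within 0.1 of 0, beside 49.7% of genes in the level range and 43.8% of all genes. All 38 lay within 0.2, beside 76.6% and 72.1%. The SD of the differences was 0.0688 over the members, 0.199 in the level range and 0.223 over all genes.

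**Figure D3:**
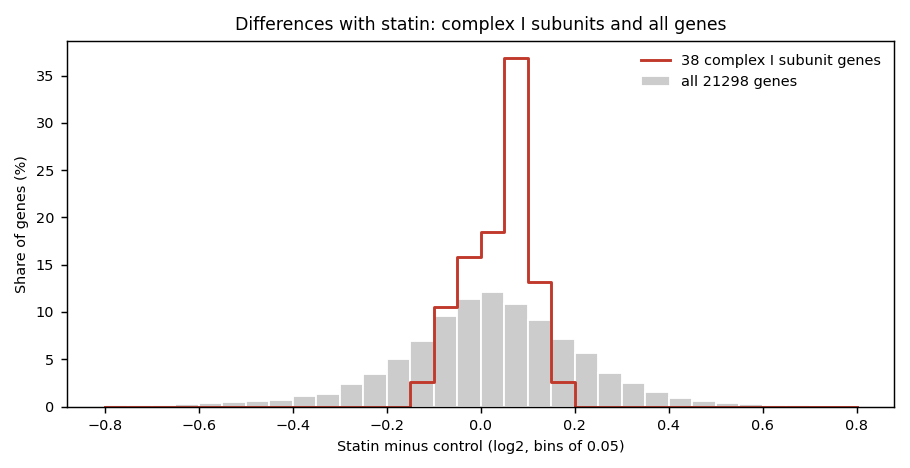
Share of genes in percent (vertical axis) by statin minus control log2 difference in bins of 0.05 (horizontal axis), as grey bars for all genes and a red line for the 38 subunit genes. The red line ends at -0.11 and 0.18, inside a grey distribution of which 72.1% lies within 0.2 of 0.

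A prior variance that follows the level and is robust to outlying genes gave smaller errors, 0.0277 to 0.0791, for these bright probe sets. In that fit of limma 2 members were called higher with statin, NDUFAB1 (adjusted p = 0.0135) and NDUFA7 (adjusted p = 0.0245), beside 13.2% of all genes called and 5.27% called higher. At an unadjusted p under 0.05 there were 12 members, beside 26.8% of all genes, and 10 of them were higher, beside 12.9%. For this fit no share was computed over genes of the same level range, so level and membership cannot be told apart in these counts. The widest interval bounds were then 0.863 and 1.22 times control.

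A measure of RNA quality differed on the statin arrays. The log2 value of ACTB at its 3′ end exceeded that at its 5′ end by 2.13 and 1.92 on the statin arrays and by 1.54 to 1.64 on the other 4, and for GAPDH by 0.02 to 0.10 on all arrays. The part of this in the members' differences was not tested. The array medians over all probe sets ran from 4.84 to 4.91. All 11 hepatocyte markers were bright, from 11.06 to 14.26, and of 10 markers of other cell types LYZ was at 13.05, the others were at 3.13 to 7.09, and 7 of the 10 lay above the dim level. With statin the hepatocyte markers differed by -0.08 to 0.36 (median 0.05, 8 of 11 above 0) and those of other cell types by -0.40 to 0.39 (median 0.14, 7 of 10 above 0). None was called against control (smallest adjusted p = 0.0529 in limma), and their part was not tested either. LYZ was called higher with statin than with nLDL (adjusted p = 0.0416 in limma).

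With nLDL the subunit genes stayed within 0.1 of control on the log2 scale. None of the 38 was called in limma, and 0% of all genes were. At an unadjusted p under 0.05 there were again 0, beside 5.17% of all genes and 1.38% of those in the level range. The differences ran from -0.09 to 0.06, which is 0.938 to 1.04 times control. All 38 lay within 0.1 of 0, beside 67.1% of all genes on the arrays. That share was not computed for the level range, where the median replicate SD was 0.0432, beside 0.0855 over all genes. The interval bounds reached 0.802 and 1.19 times control. The median was 0.01, and 21 of 38 differences were above 0, beside 49.2% of all genes.

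The lowest nLDL differences were those of NDUFV3 (-0.09, SE 0.07, adjusted p = 0.920), NDUFB3 (-0.06), NDUFS8 (-0.05) and NDUFA5 (-0.04). NDUFB3, a small subunit of the distal arm, measured 11.77 and 11.79 in control and 11.67 and 11.76 with nLDL, with no overlap. The highest were those of NDUFV1 (0.06, SE 0.08, adjusted p = 0.965), NDUFS6 (0.04) and NDUFB2 (0.04). NDUFS6 measured 11.71 and 11.54 with nLDL, on either side of its control arrays, and NDUFB2, a distal subunit, measured 12.32 and 12.27 in control and 12.37 and 12.30 with nLDL.

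Both nLDL arrays lay above both controls for 2 genes, NDUFA13 and NDUFB5, beside 17.7% of all genes. Both lay below for 7 genes, NDUFA2, NDUFA3, NDUFB3, NDUFB4, NDUFB8, NDUFS4 and NDUFV3, beside 18.1%. In NDUFB4, a distal subunit, the values were 13.08 and 13.08 in control, 13.05 and 13.05 with nLDL, and 13.09 and 13.06 with statin, so that the gap was 0.03. For the other 29 genes the arrays overlapped.

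Statin set against nLDL, which opposes cholesterol depletion to enrichment, gave differences from -0.11 to 0.20 with a median of 0.04. The nLDL comparison with control and the statin comparison with control share the control arrays, and this comparison shares an arm with each. No member was called in limma, beside 3.52% of all genes (1.54% higher and 1.97% lower), and 1 had an unadjusted p under 0.05, beside 19.2%. Of the 38 differences 29 were above 0, beside 53.6% of all genes. Both statin arrays lay above both nLDL arrays for 20 genes, beside 26.5%, and below for NDUFA4 alone, beside 23.5%.

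NDUFA7 again had the highest difference, 0.20 (SE 0.08, 95% interval 0.02 to 0.39, adjusted p = 0.254). NDUFB10 (0.14, adjusted p = 0.419), NDUFA1 (0.13, adjusted p = 0.455) and NDUFB3 (0.12) followed. The lowest were those of NDUFS6 (-0.11, adjusted p = 0.584), NDUFA4 (-0.04), NDUFV2 (-0.04) and NDUFA9 (-0.04), a subunit near the ubiquinone site. With the level-dependent prior variance, limma called NDUFA7 (adjusted p = 0.0134) and NDUFA1 (adjusted p = 0.0456) higher with statin than with nLDL, beside 12.1% of all genes called and 5.36% called higher. With nLDL against control it called none of the 38, beside 0.15%.

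The methods of the study name a t-test with p at most 0.05 and a change of at least 1.1-fold. By it 0 of 38 members differed with statin, beside 14.8% of all genes, and 0 with nLDL, beside 3.2%. Between statin and nLDL 2 differed, NDUFA7 and NDUFB10, beside 12.1%. The t-test was applied here to the deposited values of each brightest probe set, so these counts are not the study's own gene list.

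Most genes of the family had further probe sets, which describe how far the values depend on the probe set. In 21 genes there were 32 of these, 22 of them at a mean level below 7, and 17 genes had 1 probe set each. Their statin differences ran from -0.30 to 0.29 with a median of -0.02, and 19 of 32 were below 0, whereas 11 of the 38 brightest were. None of the 70 probe sets was called in either comparison with control, beside 2.62% of all probe sets with statin and 0% with nLDL. At an unadjusted p under 0.05 there were 3 of 70 with statin, beside 18.8% of all probe sets, and 2 of 70 with nLDL, beside 6.15%.

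The 2 further probe sets with a small p for statin lay little above the dim level of 4.23, at mean levels of 4.30 and 4.66. Probe set 227206_at of NDUFA10, a proximal subunit related to nucleoside kinases, measured 4.41 and 4.39 in control and 4.20 and 4.01 with statin, a difference of -0.29 (adjusted p = 0.152 in limma), while its brightest probe set measured 10.34 and 10.39 in control and 10.41 and 10.41 with statin. Probe set 209223_at of NDUFA2, which has a thioredoxin-like fold, measured 4.97 and 4.67 in control and 4.41 and 4.62 with statin, a difference of -0.30 (adjusted p = 0.240), against 0.08 for its brightest. In both genes the probe sets disagreed in sign.

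With nLDL the 2 were 214241_at of NDUFB8 and 242168_at of NDUFS7. The former measured 6.85 and 6.92 in control, 6.63 and 6.65 with nLDL and 6.72 and 6.70 with statin, a nLDL difference of -0.24 (adjusted p = 0.798 in limma). The latter measured 5.40 and 5.31 in control and 5.84 and 5.51 with nLDL, a difference of 0.32 (adjusted p = 0.803). In both, treated and control arrays did not overlap.

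Probe sets of 1 gene differed in sign with statin in 12 genes, NDUFA10, NDUFA2, NDUFA5, NDUFA7, NDUFB2, NDUFB6, NDUFB7, NDUFB8, NDUFC1, NDUFS1, NDUFS4 and NDUFS7, and in 9 when those under the dim level were left out. With nLDL they did so in 8 genes. NDUFA7 was among the 12, since its second probe set measured 6.11 and 6.06 in control and 5.95 and 6.13 with statin, a difference of -0.05 (SE 0.09). In NDUFB6, NDUFB7, NDUFC1 and NDUFS4 the brightest probe set was 0.05, 0.10, 0.08 and 0.08 higher with statin, and the second differed by -0.28, -0.02, -0.15 and -0.08, the second of NDUFB6 and of NDUFS4 being below the dim level. Of the 4, NDUFC1 had the brightest second probe set, with 6.94 and 6.82 in control and 6.70 and 6.75 with statin. In NDUFA5, NDUFB2 and NDUFS7 the dimmest probe set differed by 0.06, -0.01 and -0.02, against -0.04, 0.09 and 0.09 for the brightest.

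NDUFB8 had 2 bright probe sets of opposite sign. Its 201226_at measured 11.75 and 11.70 in control and 11.82 and 11.77 with statin, a difference of 0.07, against -0.08 for 201227_s_at, and neither passed the test.

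NDUFS1 was measured by 5 probe sets, of which 3 varied together. For 236356_at the values were 8.05 and 7.91 in control, 7.78 and 7.69 with nLDL, and 8.28 and 7.83 with statin. For 235321_at they were 4.67 and 4.52, 4.22 and 4.19, and 4.96 and 4.26, and for 239268_at they were 4.81 and 4.64, 4.59 and 4.56, and 4.93 and 4.62. In each of the 3, statin array 1 was the highest, statin array 2 lay below the lower control, and both nLDL arrays lay below both controls, with nLDL differences of -0.25, -0.39 and -0.14. None passed the test, and the smallest adjusted p of the 3 with nLDL was 0.835. The brightest probe set, 203039_s_at, and 229647_at did not follow this pattern, the latter measuring 8.46 and 8.52 in control, 8.48 and 8.46 with nLDL, and 8.43 and 8.49 with statin.

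**Figure D4:**
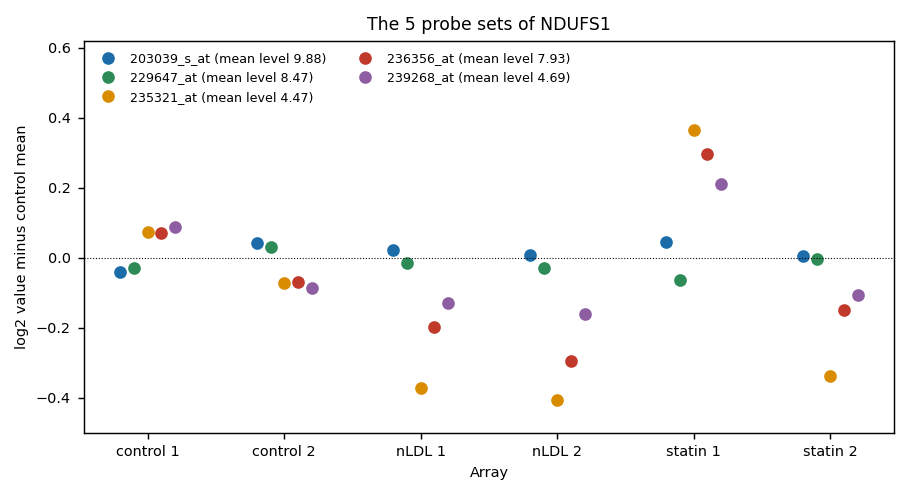
Log2 value minus the mean of the control arrays (vertical axis) for the 5 probe sets of NDUFS1 on each array (horizontal axis), in a colour each. Probe sets 236356_at, 235321_at and 239268_at are high on statin array 1 and low on the nLDL arrays and statin array 2, while 203039_s_at and 229647_at stay near 0.

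Probe sets annotated to several genes were outside the rule. Among them, 223808_s_at, given to NDUFS3 and its neighbour PTPMT1, a mitochondrial phosphatase, measured 9.39 and 9.38 in control, 9.38 and 9.33 with nLDL, and 9.18 and 9.30 with statin, a statin difference of -0.15. It cannot be assigned to NDUFS3, whose own probe set differed by 0.08.

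The complex I subunits encoded in mitochondrial DNA were represented by 3 of 7 genes, which form part of the membrane pumps. ND2 measured 13.44 and 13.46 in control and 13.40 and 13.42 with statin, a difference of -0.04. ND4 measured 14.36 and 14.39 in control and 14.39 and 14.39 with statin, a difference of 0.02. The mean level of ND4, 14.37, was near 14.55, the highest of all genes, and a limit of the scale there was not tested. ND6 had the smallest p, with a difference of -0.17 (SE 0.13, adjusted p = 0.545 in limma). The groups overlapped for ND4 and ND6, and the median of the 3 was -0.04 with statin and -0.01 with nLDL.

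The 17 assembly factors, which build complex I but are no part of it, had a statin median of -0.07, with 5 above 0, beside 0.06 and 27 of 38 for the subunits. None was called, beside 3.75% of all genes with statin. At an unadjusted p under 0.05 there were 4 of 17 (23.5%), a share close to the 21.9% of all genes. All 4 were lower with statin, as were 2156 of all 21298 genes at that p. These were NDUFAF6, NUBPL, which delivers iron-sulfur clusters, COA1 and ACAD9. NDUFAF6 measured 8.93 and 8.96 in control, 8.82 and 8.86 with nLDL, and 8.57 and 8.68 with statin, a difference of -0.32 (SE 0.08, adjusted p = 0.0964). Its 3 groups did not overlap. The nLDL median of the assembly factors was 0.00. The difference between subunits and assembly factors was not tested.

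The other respiratory complexes stayed in a similarly narrow band, and none of their members was called in any comparison. Of all genes 3.75% were called with statin, 0% with nLDL and 3.52% between them. For complex II the statin median over 4 genes was 0.00, and SDHC, its membrane anchor, had the smallest p (difference 0.16, adjusted p = 0.423). For complex III it was -0.04 over 9 genes with 3 above 0, and UQCR10 had the smallest p (difference 0.11, adjusted p = 0.495). For complex IV it was 0.04 over 10 genes with 9 above 0, and COX5B had the smallest p, with 12.61 and 12.59 in control and 12.71 and 12.71 with statin (difference 0.11, adjusted p = 0.465). For complex V it was 0.02 over 18 genes with 14 above 0, and ATPIF1, an inhibitor of the ATP synthase, had the smallest p (difference 0.13, adjusted p = 0.429). Of all genes, 55.4% had a statin difference above 0 and 21.9% had an unadjusted p under 0.05 with statin. Within these 4 lists no gene had such a p. The nLDL medians were 0.03, -0.03, -0.02 and 0.00 in the same order.

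**Figure D5:**
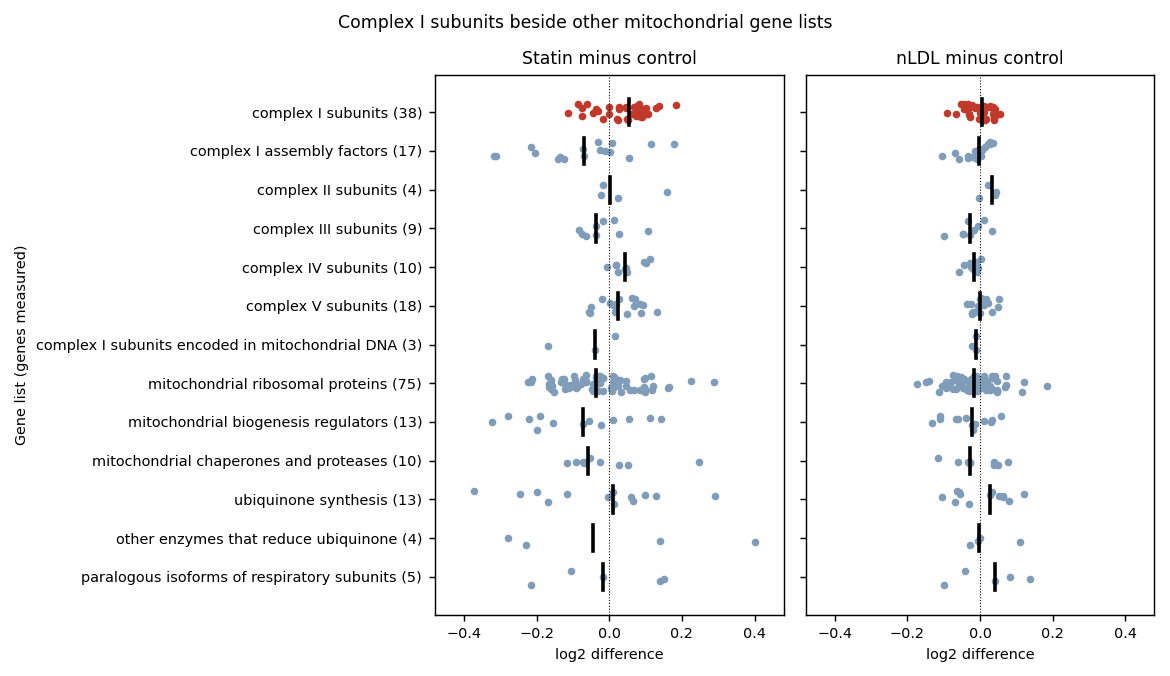
Log2 differences (horizontal axes) of complex I subunits and of other mitochondrial gene lists (rows, with the number of genes measured), for statin and nLDL against control in separate panels. Points are genes and the marked line of each row is its median, which with statin was 0.06 for the subunits and -0.07 for the assembly factors and for the biogenesis regulators.

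Ubiquinone, the electron acceptor of complex I, was covered by 2 lists. The 13 genes of ubiquinone synthesis had a statin median of 0.01, with none called, beside 3.75% of all genes. At an unadjusted p under 0.05, 1 was higher and 2 were lower (23.1%, close to the 21.9% of all genes). COQ2, which joins the isoprenoid tail to the ring, measured 9.20 and 9.17 in control, 9.10 and 9.14 with nLDL, and 8.72 and 8.90 with statin, a difference of -0.37 (SE 0.09, adjusted p = 0.0828). Of the other enzymes that reduce ubiquinone 4 of 5 were measured, with a median of -0.05 and 1 higher and 1 lower at that p, which is 2 of 4. The electron transfer flavoprotein dehydrogenase, ETFDH, measured 8.06 and 7.94 in control, 8.10 and 8.11 with nLDL, and 8.38 and 8.41 with statin, a difference of 0.40 (SE 0.08, adjusted p = 0.0530). Its statin arrays lay above the other 4, and it missed the threshold. The nLDL medians of these 2 lists were 0.03 and 0.00.

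Of the regulators of mitochondrial biogenesis 13 of 14 were measured, with a statin median of -0.07, 4 above 0, and 2 lower at an unadjusted p under 0.05 (15.4%, beside 21.9% of all genes in either direction). Lower at that p were 2156 of all 21298 genes. NRF1, whose motif was searched above, measured 7.25 and 7.06 in control, 7.16 and 7.21 with nLDL, and 6.80 and 6.87 with statin, a difference of -0.32 (SE 0.09, adjusted p = 0.122). The statin arrays lay below the other 4. The 10 subunit genes with an NRF1 motif had a median statin difference of 0.02 and the 23 without it 0.07. For the 7 genes with the YY1 motif the median was 0.08, beside 0.05 for the 26 without it. For the 5 genes with the ETS motif it was 0.09, beside 0.05 for the 28 without it. No test was made of these splits.

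The 75 mitochondrial ribosomal proteins had a statin median of -0.04, with 27 above 0 and 2 higher and 3 lower at an unadjusted p under 0.05 (6.67%, beside 21.9% of all genes). MRPS25 had the smallest p (difference 0.29, adjusted p = 0.110). The 10 chaperones and proteases had a median of -0.06, and the protease CLPP had the smallest p (difference 0.25, adjusted p = 0.173). The 5 paralogous isoforms of respiratory subunits, which other tissues use, had a median of -0.02, and COX7A1 had the smallest p, at a mean level below the dim level (adjusted p = 0.367). No gene of these lists was called in any of the 3 comparisons. Of all genes 3.75% were called with statin, 0% with nLDL and 3.52% between them. The nLDL medians of these lists were -0.02, -0.03 and 0.04.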

How the data were processed

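Total RNA of 6 Huh7 cultures was measured on Affymetrix U133 Plus 2.0 arrays. The labels call the 2 arrays of each of 3 groups replicates, and the methods of the study call them biological replicates. Their number limits the precision. Their values were not identical. The deposited table holds log2 values that the authors normalised with GeneSpring GX 11.5. A second deposited table supplied gene symbols, and its name points to RMA. Its 6 sample columns matched no label and were not used. The tests covered 54613 probe sets, without 62 array controls. Of these, 43383 had a single symbol, 1663 several and 9567 none. The 3 group means were estimated from all arrays by limma (version 3.58.1, under R 4.3.3; eBayes, residual degrees of freedom 3, prior 4.08), two-sided, with Benjamini-Hochberg adjustment over all probe sets. An exact permutation of 2 against 2 arrays cannot go below 0.333.

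The members and gene lists were chosen with earlier results of these data known. Named with values were core subunits, the 4 highest and 4 lowest members of each comparison, members whose probe sets differed in sign, and the gene of smallest p in each other list, except 1 item that is not reported here. Others named, the level-range background and the motifs were chosen after values were seen, and the NRF1 motif was shortened after its longer form had been counted. Alternatives were 3 other scalings, a filter on dim probe sets, a trended prior, a fit of the compared groups alone, the methods' t-test, other choices of probe set, the replicate number as a block and leaving out each array.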

Additional observations from a re-analysis of the deposited data

How the results depend on the processing

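Among alternatives that kept both arrays of the compared groups, the number of members called with statin was 0 in all but the trended and robust prior. That prior called 2. The number of all probe sets called also changed between alternatives, as given below. Where an array of a compared group was left out, the count of members called is not used. Against nLDL, that prior called 2 and the methods' t-test, at their own threshold, 2 (NDUFA7 and NDUFB10, none after Benjamini-Hochberg adjustment). The statin median of 0.06 was 0.088 after quantile normalisation, 0.021 after median centring, 0.098 after cyclic loess and 0.030 as a mean over probe sets. The median over all genes was 0.023 as reported, 0.023 after quantile normalisation, -0.012 after median centring and 0.020 after cyclic loess. The nLDL median of 0.01 was -0.011 after centring and 0.022 after loess, and the median of statin against nLDL, 0.04, was 0.020 and 0.063. Leaving out each array gave medians of 0.0497 to 0.061 for statin, -0.007 to 0.0129 for nLDL and 0.0273 to 0.0585 between them. Differences above 0 numbered 23 to 32 of 38 for statin, 10 to 25 for nLDL and 25 to 33 between them, so the sign of the nLDL median is not settled by these data.

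Calls with statin, 1429 of 54613 probe sets, became 820 with the replicate block, 4954 with the trended prior and 607 in the compared groups alone. They were 1424 after quantile normalisation, 1657 after median centring, 1434 after cyclic loess, and 2745 of 32768 after the dim filter. Leaving out a control or statin array left a single array in that group and fewer calls than any of these. With the replicate block 0 members were called in each comparison, the medians were 0.056, 0.0053 and 0.039, and the smallest adjusted p was 0.282, 0.875 and 0.280. Deviations of same-numbered arrays correlated at 0.02 to 0.09, and at 0.04 to 0.14 above the dim level. Since not every pair exceeded 0.1, the numbers were not taken to pair them.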
